A study of Mus musculus with 2 samples.

Results

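The regions described here are Sox4 peaks that lay over the transcription starts of at least 2 different genes at once. They were chosen by a rule on annotation alone: in the deposited peak list, each annotated transcript carries its distance to the peak, and a peak was taken when 2 or more different gene symbols had a start at distance 0, with all transcripts of 1 symbol counted once. The rule took 755 of 8730 peaks, 8.65% (95% exact binomial interval 8.07 to 9.26). Of the 5545 peaks that covered any start, 13.6% (12.7 to 14.5) were shared-start peaks. Another 4790 peaks covered the start of exactly 1 gene, and 3185 covered none. The label held in the file: 744 of the 755 peaks covered 2 symbols, 10 covered 3 and 1 covered 4, and no symbol lay under more than 1 of them.

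The series held 1 pull-down library and 1 input chromatin library, and only the peak list of the pull-down was analysed here. Both came from C57BL/6 progenitor B cells of embryonic fetal liver that had received 4 retroviral constructs one after another, with sorting after each. The first carried BirA, the next p190 Bcr-Abl, then SE-Cre, and the last BAP-Sox4. BirA is a biotin ligase and BAP the short peptide it biotinylates, so that tagged Sox4 was captured from sonicated chromatin on streptavidin beads, while p190 Bcr-Abl, the fusion kinase, immortalized the cells. Both libraries carried every one of these constructs, the tagged Sox4 was supplied by a retrovirus, and neither library lacked the tag. The labels also name SOX4 under antibody. The study's title places the binding map in the differentiation program of pro-B cells. With 1 pull-down library there were no replicates, so no test was made. The 95% intervals of shares below cover counting error only. Those of medians, and the ratios made from them, reflect the spread over the peaks of this list, taken as independent. No interval covers variation between libraries. The peaks hold binding and no expression. Markers of cell types could therefore only be looked up as peaks, where 29.0% of all coding genes had a covered start. Of 8 progenitor B markers, Cd79a and Igll1 had one, a share near that background, and none lay in a shared-start peak. None of 3 markers each of T cells, myeloid cells, erythroid cells and hepatocytes had a covered start, numbers too small to check the label.

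Sox4 is a transcription factor of the SOX family, which binds the minor groove of short AT-rich sites through an HMG box and is needed for early B-cell development. Genes on opposite strands whose starts lie close together and point away from each other share a bidirectional promoter. Such promoters are common in mammals, are usually GC-rich CpG islands without a TATA box, and often serve genes of DNA repair, the mitochondria and basic metabolism. Over such a promoter a peak cannot be assigned to one gene rather than the other.

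The promoters of 4 of the highest-scoring shared-start peaks are shown because they differ in whether the window held a short SOX core. Windows with such a core were picked first, so these 4 do not show how often it occurs. ACAAAG stood in 8.79% of 614 shared-start windows. Each is the 300-base RefSeq window of 1 gene on GRCm38.p6, from 250 bases before to 50 bases after its start, read along that gene with the start at position 251. In the windows of Zbtb1 (chr12:76370270-76370569, plus strand), Fubp1 (chr3:152210172-152210471, plus strand) and Gnl3 (chr14:31019082-31019381, minus strand), capitals mark a SOX core on either strand, either ACAAAG, which may be preceded by an A, or the alternative core AACAAT. In that of Mcm7 (chr5:138171834-138172133, minus strand), which held none, capitals mark CCAAT and GGGCGG on either strand.
Zbtb1: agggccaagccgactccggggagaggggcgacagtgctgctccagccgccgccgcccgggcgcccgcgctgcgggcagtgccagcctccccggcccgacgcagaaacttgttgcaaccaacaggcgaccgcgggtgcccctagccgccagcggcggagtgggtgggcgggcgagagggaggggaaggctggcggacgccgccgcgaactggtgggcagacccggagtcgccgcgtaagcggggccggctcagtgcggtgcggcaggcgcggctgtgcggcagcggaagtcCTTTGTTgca
Fubp1: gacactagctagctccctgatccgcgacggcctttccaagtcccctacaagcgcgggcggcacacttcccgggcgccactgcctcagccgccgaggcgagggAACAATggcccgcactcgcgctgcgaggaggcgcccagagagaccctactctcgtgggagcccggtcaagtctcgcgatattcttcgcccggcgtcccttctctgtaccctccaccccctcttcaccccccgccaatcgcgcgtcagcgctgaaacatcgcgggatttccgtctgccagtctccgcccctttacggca
Gnl3: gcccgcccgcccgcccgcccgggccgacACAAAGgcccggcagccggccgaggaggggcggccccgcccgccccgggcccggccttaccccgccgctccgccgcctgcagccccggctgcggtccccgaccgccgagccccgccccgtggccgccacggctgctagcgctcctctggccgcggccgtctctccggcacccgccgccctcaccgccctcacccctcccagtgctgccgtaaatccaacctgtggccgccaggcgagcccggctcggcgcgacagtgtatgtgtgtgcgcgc
Mcm7: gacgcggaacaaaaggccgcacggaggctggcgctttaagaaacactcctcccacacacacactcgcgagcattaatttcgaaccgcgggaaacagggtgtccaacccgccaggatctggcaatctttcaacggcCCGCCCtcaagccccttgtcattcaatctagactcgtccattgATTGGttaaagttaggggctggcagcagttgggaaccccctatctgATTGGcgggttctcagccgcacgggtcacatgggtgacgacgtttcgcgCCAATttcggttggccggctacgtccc
The Zbtb1 window held AACAAAG on the other strand 40 bases past the start. Fubp1 had AACAAT 148 bases before its start, and its partner Dnajb4 started 339 bp away on the opposite strand. Gnl3 had ACAAAG 222 bases before its start, while the start of its partner Pbrm1 lay only 7 bp away, at position 244 of the window, so that this match fell in the transcribed part of Pbrm1. In the Mcm7 window, CCAAT stood 23 bases past the start and on the other strand 72 and 26 bases before it, GGGCGG stood on the other strand 115 bases before it, and the partner Ap4m1 started at position 113. A window is the first that the table gives for a gene and need not be the start the peak covered.

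Sox4 peaks over shared starts were about as strong as peaks over 1 start. A shared-start peak held a median of 83 sequence tags (interval 80 to 87; range 31 to 652), against 79 (77 to 80) over a single start and 59 (58 to 60) where no start was covered. Its median width was 1034 bp (1007 to 1068), against 994 bp (981 to 1005) over a single start. The fold, the authors' tag enrichment over the background of their peak caller, had a median of 4.54 (4.44 to 4.65) over shared and 4.50 (4.44 to 4.55) over single starts, a ratio of 1.01 (0.976 to 1.05). The score, -10 log10 of the caller's p-value, was 126.6 (119.2 to 134.2) against 120.1 (117.3 to 122.8), a ratio of 1.05 (0.970 to 1.14). Tags per kb of peak were 79.6 and 78.2, a ratio of 1.02 (0.997 to 1.04). The intervals of these 3 ratios included equality, that of the width ratio, 1.04 (1.002 to 1.09), did not, and that of the tag ratio, 1.05 (1 to 1.13), reached it.

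**Figure D1:**
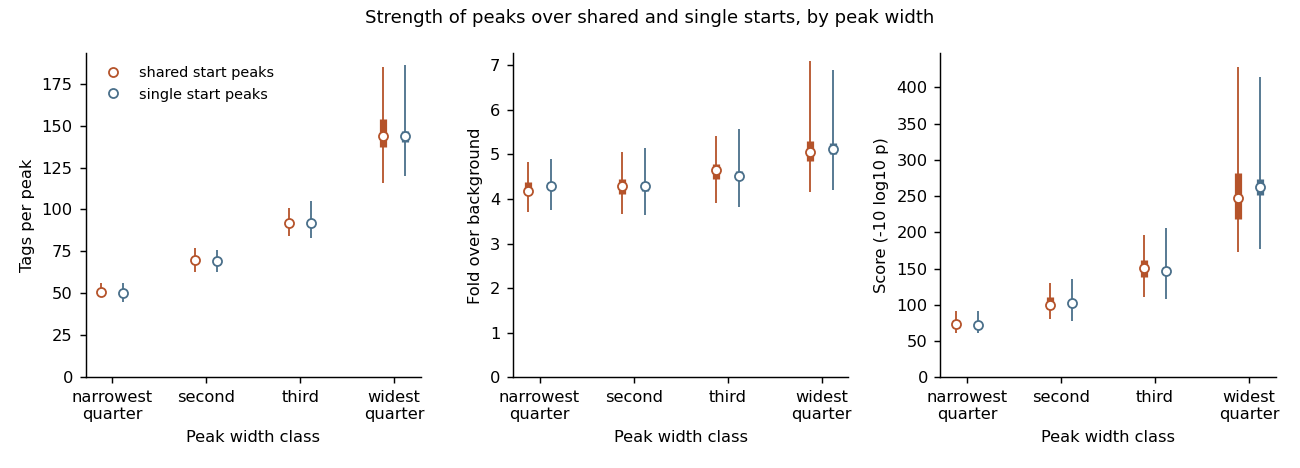
Tags per peak, fold over background and score (-10 log10 p) of shared-start and single-start peaks in 4 width classes, the quartiles of all start-covering peaks. Circles are medians, thick bars their 95% order-statistic intervals and thin bars the quartiles; the medians of both kinds of peak lie close together in each class, and tags and score rise with width.

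A peak needs some width to reach 2 starts, so the comparison was repeated within quartiles of width. Shared-start peaks made up 10.9% (9.28 to 12.6) of the narrowest start-covering peaks, up to 812 bp, and 15.5% (13.6 to 17.5) of the widest, above 1271 bp. Among the narrowest, the median fold was 4.18 over shared and 4.30 over single starts, and among the widest it was 5.06 and 5.13. The median score of the widest was 247.8 (218.9 to 281.4) against 261.9 (251.7 to 272.9). In all 4 width classes the fold intervals of both kinds of peak overlapped.

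The share of high-fold peaks over shared starts did not differ beyond counting error from that elsewhere. The background share of peaks at a fold of at least 10 was 4.39% over all 8730 peaks and 4.31% over all start-covering peaks. The shared-start peaks included 34 such peaks of 755, 4.50% (3.14 to 6.24), beside 205 of 4790 single-start peaks, 4.28% (3.72 to 4.89), and 144 of 3185 peaks without a start, 4.52% (3.83 to 5.30). Of those 34, 28 were in the widest class, as were 137 of the 205 single-start peaks. Within that class, peaks at a fold of at least 10 made up 13.0% (8.83 to 18.3) of 215 shared-start peaks. They made up 11.7% (9.91 to 13.7) of 1171 single-start peaks. Among the 100 highest-scoring start-covering peaks, 17 were shared-start peaks, and among the 1000 highest-scoring 133 were, 13.3% (11.3 to 15.6).

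**Figure D2:**
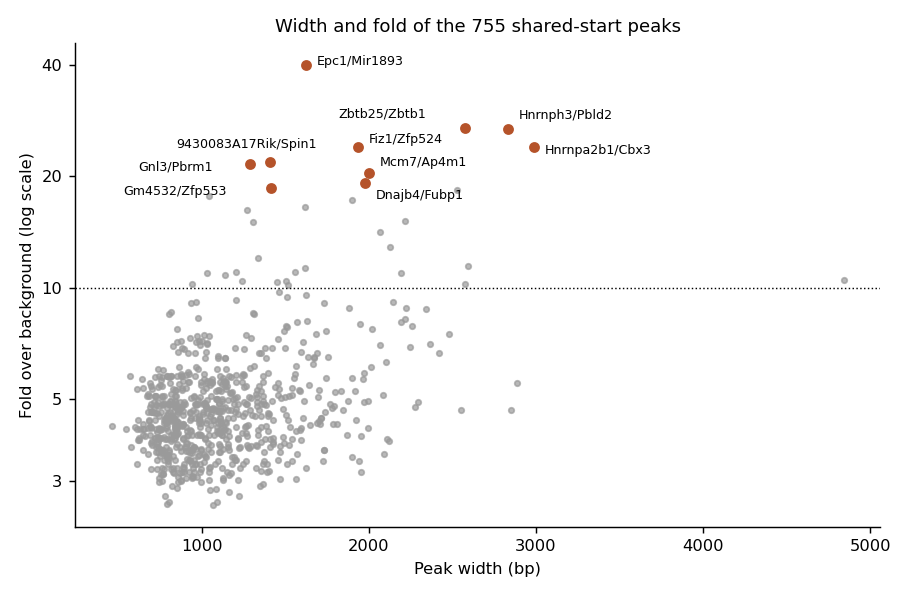
Width (bp) against fold over background (log scale) of the 755 shared-start peaks, 1 point each. The 10 highest folds are coloured and named, and the dotted line marks a fold of 10, which 34 peaks reached.

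The strongest shared-start peak lay on chromosome 18 (mm9, 6489613 to 6491237). It covered the starts of Epc1, a subunit of the NuA4 histone acetyltransferase complex, and of the microRNA gene Mir1893, whose strand was unknown. With 652 tags and a fold of 40, this peak ranked 2 of all 8730 peaks by score (3100) and 6 by fold. A single-start peak had the same score, so the rank by score was tied. The next in score covered genes for RNA-binding proteins of the hnRNP family. The peak over Hnrnpa2b1 and Cbx3 (6:51418650 to 51421636), the latter a heterochromatin protein, held 511 tags at a fold of 24.04. The peak over Hnrnph3 and Pbld2 (10:62485576 to 62488406) held 521 tags at a fold of 26.75. The peak over Hnrpdl, another hnRNP-like gene, and Enoph1 held 370 tags at a fold of 15.1. These 3 peaks ranked 16, 17 and 56 by score.

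Zbtb25 and Zbtb1, 2 zinc-finger genes on opposite strands of chromosome 12, lay under 1 peak of 422 tags and a fold of 26.96. Fiz1 and Zfp524, also zinc-finger genes, lay under 365 tags at a fold of 24. Gnl3, a nucleolar GTPase, and Pbrm1, a subunit of the PBAF remodelling complex, shared a peak of only 1292 bp with 258 tags at a fold of 21.6. Fubp1, which encodes a single-stranded DNA-binding protein known for its action on Myc, and the chaperone gene Dnajb4 shared 350 tags at a fold of 19.2. The zinc-finger gene Zfp553 and the noncoding Gm4532 (fold 18.58), and Spin1, a reader of histone methylation, with the noncoding 9430083A17Rik (fold 21.82), were top peaks with 1 coding partner.

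At the other end, the lowest scores included 50.2 over Gm15760 and Abcf3 and 50.52 over Coa5 and Unc50. The narrowest peak, 463 bp, covered 4930506C21Rik and Sft2d1, and the next covered Slc35a5 and the autophagy gene Atg3 (546 bp) and the histone genes Hist1h2ah and Hist1h2bk (570 bp). The widest by far, 4840 bp, covered Brd2, a bromodomain reader of acetylated histones, and H2-DMa, a chaperone of peptide loading on MHC class II. It held 543 tags, yet its fold was 10.49.

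Almost every pair with a known orientation was on opposite strands. The file gives no strand, so strand was inferred from the distances the authors gave for several peaks. Where these did not settle it, the strand of the RefSeq window was taken. Both sources matched for 5438 of 5447 transcripts where both were known. Of 744 peaks over 2 genes, 593 covered opposite strands, 28 the same strand, and in 123 the strand of a partner was unknown. Opposite strands thus made up 593 of 621 pairs with both strands known, 95.5% (93.5 to 97.0). If each unknown pair were counted as not opposite, the share would be 79.7%.

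The starts of opposite-strand pairs lay close together. In the 433 pairs whose RefSeq windows overlapped enough to read the gap from their letters, the median gap was 131 bp (115 to 148), with quartiles of 66 and 226 bp, and in 14 of them the 5′ ends overlapped. Gaps beyond 480 bp, or overlaps past -80 bp, cannot be read this way. Where a gene had several starts, the smallest gap was taken, here and for the mm9 starts below, which favours short gaps. In 215 pairs both mm9 starts could be placed from the deposited distances, and their median gap was 157 bp (122 to 177), with the widest at 1195 bp. Overlapping 5′ ends made up 3.23% (1.78 to 5.37) of the first set and 28 of 215, 13.0% (8.83 to 18.3), of the second. These shares are not alike, because the first leaves out longer overlaps by method, while gaps in the second reached -522 bp. Where both readings existed, 75 of 129 were within 10 bp of each other, and the 2 tables can differ in the start they hold. A peak of 1034 bp at the median therefore reached well past both starts, whose span took up a median of 18.8% of the peak's width (16.4 to 21.8). By gap read from the letters, the median fold was 4.955 (4 to 6.13) in the 14 pairs with short overlaps of their 5′ ends. It was 4.52 (4.2 to 4.79) in the 147 pairs with gaps from 0 to 99 bp and 4.29 (3.97 to 4.81) in the 57 pairs with 300 bp or more. The median scores were 178.1 (81.9 to 247.0), 104.5 (91.3 to 126.9) and 119.6 (98.8 to 171.9). The intervals of these 3 groups overlapped for both measures.

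**Figure D3:**
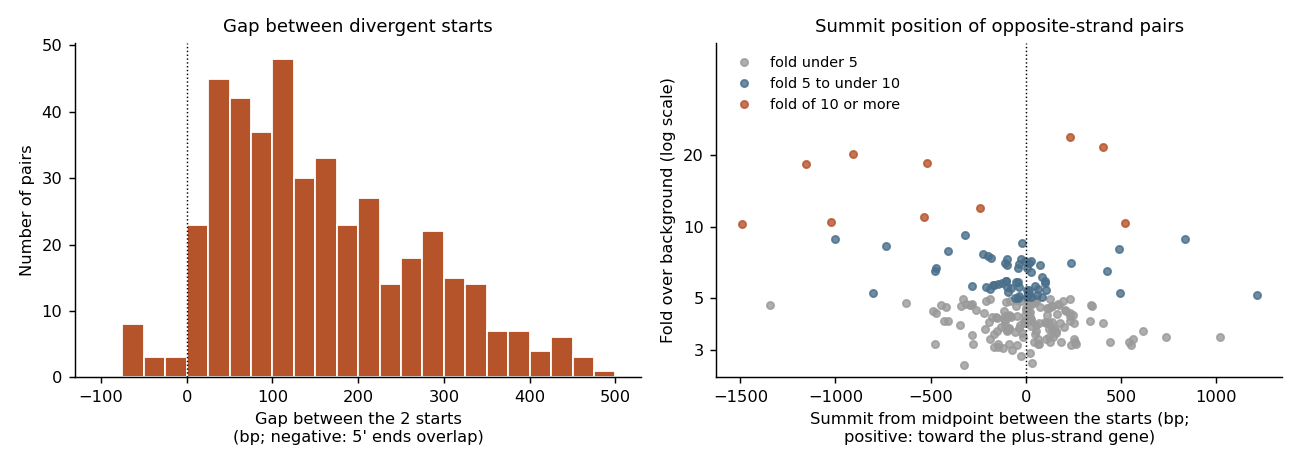
Left, number of opposite-strand pairs by gap between their starts (bp, 25-bp bins, 433 pairs read from window letters). Right, distance from the peak summit to the midpoint of both starts (bp) against fold over background (log scale) in the 215 pairs with both mm9 starts; most points with a fold under 10 cluster at the midpoint, and the 10 with a fold of 10 or more all lie over 200 bp from it.

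Summits mostly fell near a start. In the 215 pairs with both mm9 starts, the summit lay a median of 61 bp (51 to 78) from the nearer start, against 105 bp (98 to 111) in 2416 single-start peaks. A pair offers 2 starts to be near to, and the part of this in the difference was not tested. The summit lay between the starts in 90 of 215 pairs, 41.9% (35.2 to 48.8), and in 51 of the 87 pairs with gaps of 200 bp or more, 58.6% (47.6 to 69.1), whose starts spanned 30.2% of the peak at the median. The gene that the authors' file lists as closest was the one with the start nearest the summit in 110 of 215 pairs, 51.2% (44.3 to 58.0).

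In most of the few strongest of these peaks the summit stood away from both starts used, a pattern looked at after the values were seen. In the 10 with a fold of 10 or more, the median distance to the nearer start was 489.5 bp (160 to 913), against 49 bp in 61 peaks with folds from 5 to under 10 and 73.5 bp in 144 peaks under 5. These 10 peaks were also wider, with a median of 1968 bp against 984.5 bp under a fold of 5, and the distance was 27.6% of the width against 6.71%. In single-start peaks the corresponding medians were 201 bp (131 to 258; n = 104) at a fold of 10 or more and 103 bp under 5. An mm9 start could be placed only where another peak lay near the gene, so these pairs are a selection. Whether a summit lay near another annotated start of the same gene was not tested.

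In 8 of the 10, the summit lay inside 1 of the genes. It was 831 bp into Mcm7, a subunit of the replicative MCM helicase, and thus beyond the printed Mcm7 window. It was 382 bp into Pbrm1 and 913 bp into Brd2. It was 777 bp into Ddx5, an RNA helicase, 497 bp into Psma7, a proteasome subunit, 482 bp into Gng5, a G-protein subunit, 362 bp into Gm4532, and 1232 bp into Socs2, a suppressor of cytokine signalling. Only the peaks over Fiz1 and Zfp524 (160 bp from the nearer start) and over Ncapd2 and Mrpl51 (65 bp) had it between the starts. Pairs such as Apex1 and Osgep (fold 6.84), with starts 56 bp apart and the summit 47 bp from the nearer, and Rpa1 and Smyd4 (fold 5.37), 49 bp apart with the summit between, were of the common kind.

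By gene class, 535 of the 755 peaks covered 2 protein-coding genes and 190 covered a coding gene with a long noncoding RNA or pseudogene. Another 13 paired a coding gene with a small RNA. Peaks over a coding and a noncoding gene were somewhat larger, with medians of 92 tags (83 to 99) and 1112.5 bp (1074 to 1202), against 80 tags (77 to 85) and 1003 bp (971 to 1034) over 2 coding genes. The width intervals did not overlap and those of the tags did. The median folds were close, 4.56 (4.39 to 4.67) and 4.50 (4.38 to 4.65). Their partners were on opposite strands in 138 of 146 pairs with known strands, and those of coding pairs in 450 of 465.

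The 28 same-strand peaks included symbols of overlapping loci, and most of the examples here were picked after their values were seen. Some paired a host gene with a small nucleolar RNA, as in Rpl23a and Snord42b (57 tags, fold 4) and Dancr and Snora26 (138 tags, fold 11). Mir25 and Mir93 are microRNAs of 1 cluster (36 tags, fold 5.32). Others paired a gene with a symbol named as its copy, as in Oaz1 and Oaz1-ps (63 tags) or Nutf2 and Nutf2-ps1 (81 tags), where 1 locus may be listed under 2 names. In 2 peaks, Brat1 with Baat1 and Bfar with 3110001I22Rik, the gene table joins both symbols into 1 gene, which leaves 753 peaks.

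The 11 peaks over 3 or more genes had a median width of 1365 bp (802 to 1770), an interval that contains the median of all shared-start peaks, and a median fold of 4.86 (3.33 to 5.56). The highest-scoring, on chromosome 15, covered the heterochromatin gene Cbx5 on one strand and Hnrnpa1 with the pseudogenes Gm10052 and Gm5643 on the other, with 255 tags at a fold of 8.76. The peak over Cdk9, the kinase of P-TEFb, and its microRNA neighbours Mir2861 and Mir3960 held 166 tags at a fold of 5.29. The remaining named ones were Atf5 with Nup62 and the read-through Nup62-il4i1 (121 tags), Dnaja1 with Gm6297 and Mir207 (133 tags), and Ubr7 with Gm20604 and AK010878 (89 tags).

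Asked the other way round, the RefSeq windows held 654 divergent pairs of coding genes with a gap under 500 bp, a comparison added after the first results. One Sox4 peak covered both starts of 343 of them, 52.4% (48.5 to 56.3). Separate peaks covered each start in 6 pairs, 1 start alone was covered in 62, and neither in 243, 37.2% (33.4 to 41.0). Of coding genes in such pairs, 752 of 1297 had a covered start, 58.0% (55.2 to 60.7). Of coding genes with no opposite coding start within 1000 bp, 3947 of 15250 had one, 25.9% (25.2 to 26.6), and 28.2% when olfactory and vomeronasal receptor genes were left out. Genes of a pair share their peak and are not independent of each other. The windows of shared-start peaks were GC-rich, and the part of base composition in this difference was not tested.

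Promoter windows of shared-start peaks had the composition of CpG islands. The window of the gene listed as closest was used, which existed for 614 of the 755 shared-start and 3869 of the 4790 single-start peaks. The median GC content was 64.7% (63.7 to 65.3) at shared and 63.3% (63.0 to 63.7) at single starts, against 53.3% in 11973 coding genes without a covered start. The median ratio of observed to expected CpG was 0.881 (0.867 to 0.899), 0.828 (0.822 to 0.835) and 0.390. TATAAA, the TATA box, was rare at shared starts, 3.42% (2.13 to 5.18), compared with 5.63% (4.93 to 6.41) at single starts and 16.5% in genes without a covered start.

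**Figure D4:**
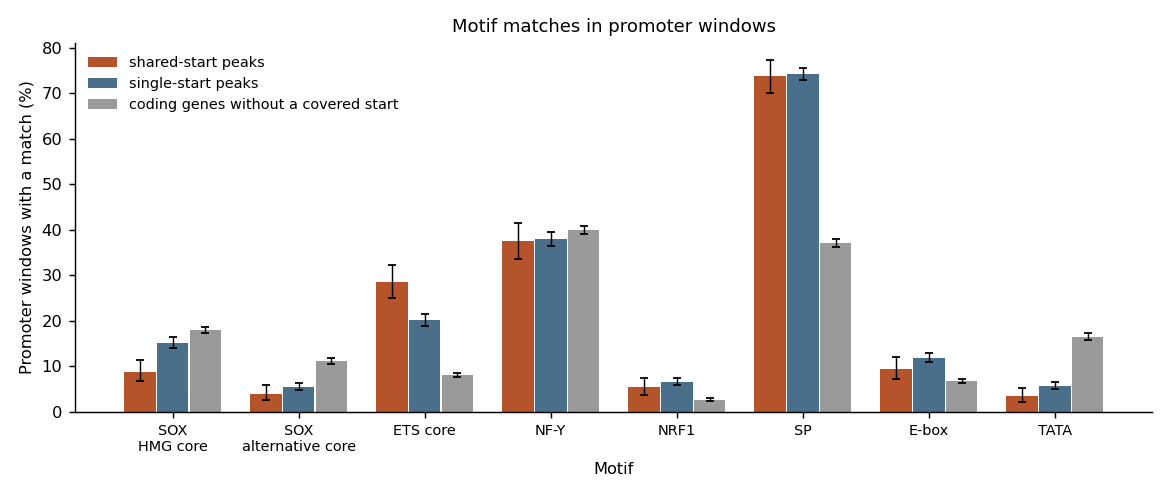
Share of 300-base promoter windows (%) with at least 1 exact match of each motif on either strand, at shared-start peaks (614 windows), single-start peaks (3869) and coding genes without a covered start (11973). Bars start at 0 and error bars are exact 95% binomial intervals; the short SOX core is lowest and the ETS core highest at shared starts.

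The short SOX core was less frequent at shared starts than at single starts, and the ETS core more frequent. Motifs were searched as exact letters on both strands, and each longer match AACAAAG was also counted as its shorter form. The core ACAAAG stood in 8.79% (6.68 to 11.3) of shared-start windows, in 15.1% (14.03 to 16.3) of single-start windows and in 18.7% of all 27025 windows of the table. The longer AACAAAG stood in 2.44% (1.37 to 3.997), 4.24% (3.63 to 4.92) and 5.79%, and AACAAT in 3.91% (2.52 to 5.76), 5.51% (4.81 to 6.27) and 10.9%. For these 2 cores the intervals of shared and single starts overlapped. CCGGAAG, the core bound by ETS factors, stood in 28.5% (24.96 to 32.3), 20.2% (18.9 to 21.5) and 9.12%. No match says only that these letters are not in this window, which was shorter than every peak.

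Since the windows differed in GC content, both motifs were also counted within 4 GC classes, a split added after the first results. ACAAAG stood in 15.5%, 10.2%, 7.02% and 3.82% of shared-start windows from the lowest to the highest GC class, and in 24.2%, 14.7%, 10.8% and 10.2% of single-start windows. CCGGAAG stood in 21.7%, 33.8%, 35.7% and 21.0% against 19.9%, 25.4%, 19.5% and 15.7%. The direction was the same in each class for both motifs, but the intervals overlapped in 6 of the 8 comparisons. They were apart for ACAAAG in the highest GC class (1.42 to 8.13 against 8.34 to 12.3) and for CCGGAAG in the third (28.5 to 43.3 against 17.002 to 22.3).

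Other promoter motifs hardly separated shared from single starts. CCAAT, bound by NF-Y, stood in 37.5% and 38.0% of windows, and in 37.9% of all windows. GGGCGG, bound by SP factors, stood in 73.8% and 74.2%, against 35.9% of all windows. GCATGCGC, part of the NRF1 site, stood in 5.37% and 6.51%, against 2.80%. CACGTG, the E-box, stood in 9.45% (7.25 to 12.04) and 11.9% (10.9 to 12.9), against 7.24%.

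Within the shared-start peaks, differences in strength between windows with and without a motif came with wide intervals. The 54 peaks with ACAAAG in the window had a median fold of 4.84 (4.39 to 5.78), against 4.495 (4.37 to 4.62) in the 560 without it. Folds of at least 10 were found in 5 of those 54, 9.26% (3.08 to 20.3), and in 23 of the 560, 4.11% (2.62 to 6.10). With CCGGAAG they were found in 3 of 175, 1.71% (0.355 to 4.93), and without it in 25 of 439, 5.69% (3.72 to 8.29), while the median folds were 4.50 and 4.52. With AACAAT (24 peaks) the median score was 192.5 (120.8 to 242.4), against 122.4 (113.5 to 131.1) without it. With TATAAA (21 peaks) the median fold was 5.55 (4.21 to 6.02), against 4.50 (4.38 to 4.62). The intervals overlapped in each of these comparisons.

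Gene lists by role differed in how often a covered start was shared. The lists were chosen with earlier results of these data known, so their shares are not independent of that choice. Of all 4880 coding genes with a window and a covered start, 1110 lay under a shared-start peak, 22.7% (21.6 to 23.9). Over 11 lists of 443 genes, 272 had a covered start and 83 of those were shared, 30.5% (25.1 to 36.4). Partners under 1 peak were each counted, so genes are not independent of each other. The intervals here and for each list below do not take this into account. A gene can lie in such a peak only where it has a close neighbour, and 89 of the 443 list genes, against 1455 of 16853 coding genes, belonged to a divergent coding pair in the windows. The part of this arrangement in the shares was not tested.

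**Figure D5:**
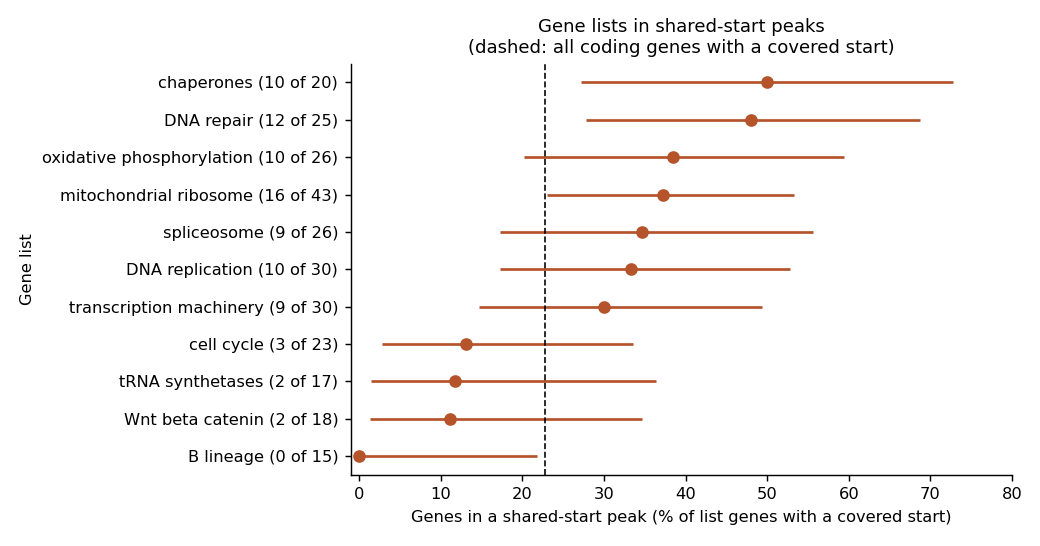
Share of list genes with a covered start that lay under a shared-start peak (%), with exact 95% binomial intervals and the counts in parentheses; the dashed line is the share of all coding genes with a covered start, 22.7%. Chaperones (10 of 20) and DNA repair (12 of 25) stand highest and B lineage genes (0 of 15) lowest.

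DNA repair genes were shared in 12 of 25 cases, 48.0% (27.8 to 68.7), and 11 of the 40 listed genes belonged to a divergent coding pair. They included the damage kinases Atm, with the histone-gene activator Npat (77 tags, fold 3.97), and Chek2, with Hscb (97 tags, fold 6.47). They included Prkdc, the catalytic subunit of DNA-PK, with Mcm4 (73 tags, fold 4.31), Xrcc6, which encodes Ku70, with Desi1 (97 tags, fold 3.78), and Xrcc4, a factor of end joining, with Tmem167 (51 tags, fold 3.47). Apex1, the abasic-site endonuclease, had the highest fold of the list, 6.84. Brca1, with Nbr1, stood at 76 tags and a fold of 3.17.

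DNA replication genes were shared in 10 of 30 cases, 33.3% (17.3 to 52.8), an interval that contains the share of all coding genes. Mcm7 with Ap4m1 stood far above the rest, at 381 tags and a fold of 20.34. Pole, the leading-strand polymerase, with Pxmp2 held 93 tags at a fold of 5.55, Rpa1, which binds single-stranded DNA, with Smyd4 78 tags, and Orc4 of the origin recognition complex with Mbd5 59 tags. Orc1, Orc5 and Orc6 also lay in shared-start peaks, with 40 to 56 tags and folds from 3.23 to 4.62. Of cell-cycle genes 3 of 23 were shared, 13.0% (2.78 to 33.6), an interval that contains the 22.7% of all coding genes. They were Cks1b with Shc1 (97 tags), Aurka with Cstf1 (69 tags), and Skp2 with Lmbrd2 (38 tags).

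Chaperone genes were shared in 10 of 20 cases, 50% (27.2 to 72.8), and 9 of the 25 listed genes belonged to a divergent coding pair. Hspd1 and Hspe1, the mitochondrial chaperonin and its co-chaperonin, lay under 1 peak of 198 tags at a fold of 5.06. Both count among the 10. Subunits of the cytosolic chaperonin CCT appeared as Cct6a with Psph (138 tags, fold 9.25), Cct7 with Pradc1 (137 tags, fold 5.69), and Tcp1 with the mitochondrial ribosomal gene Mrpl18 (142 tags, fold 5.27), besides Cct8 (81 tags) and Cct5 (52 tags).

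Among mitochondrial genes, 16 of 43 ribosomal proteins were shared, 37.2% (23.0 to 53.3), and 10 of 26 genes of oxidative phosphorylation, 38.5% (20.2 to 59.4). The second interval contains the 22.7% of all coding genes, and the first starts just above it. Of the listed genes, 23 of 76 ribosomal and 13 of 54 of oxidative phosphorylation belonged to a divergent coding pair. Mrpl51 with the condensin gene Ncapd2 was the strongest, with 184 tags at a fold of 12.02. Mrpl40 with the histone chaperone gene Hira held 214 tags at a fold of 5.67. In the respiratory chain, Ndufs1 of complex I with Eef1b2 held 97 tags at a fold of 6.01, Ndufs3 with Kbtbd4 74 tags at a fold of 7.17, and Cox15 with Cutc 95 tags at a fold of 5.61. Atp5j of the ATP synthase lay with Gabpa, an ETS factor, under 95 tags at a fold of 3.33.

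Of the transcription machinery, 9 of 30 were shared, 30.0% (14.7 to 49.4). Taf4a, a TFIID subunit, with the noncoding 4921531C22Rik reached a fold of 17.7 on 157 tags. Taf9 with the checkpoint gene Rad17 held 110 tags at a fold of 4.26, and the Mediator gene Med14 with Gm14634 105 tags at a fold of 4.51. Of the spliceosome, 9 of 26 were shared, 34.6% (17.2 to 55.7). This interval and that of the transcription machinery contain the 22.7% of all coding genes. The shared spliceosome genes included Snrpa with BC024978 (115 tags, fold 8.55), Prpf4 with Cdc26 (105 tags) and Snrpd3 with Gucd1 (108 tags). Of tRNA synthetases 2 of 17 were shared, Yars and Wars, 11.8% (1.46 to 36.4), an interval that also contains 22.7%.

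Of B-lineage genes, 15 of 36 had a covered start and none of those was shared, with an exact upper bound of 21.8%. None of the 36 belonged to a divergent coding pair in the windows. In the Wnt pathway, 2 of 18 were shared, 11.1% (1.38 to 34.7), an interval that contains the 22.7% of all coding genes. Both were negative regulators of beta-catenin. Gsk3b, with the noncoding BC031361, held 212 tags at a fold of 7.86, and Apc, with the pseudogene Gm10548 of unknown strand, 104 tags at a fold of 5.41.

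Of 50 neighbouring pairs listed by name, 18 lay under 1 peak. Some pairs were listed because they had been seen in earlier results of these data, so these counts were partly set by the choice. Over all 654 divergent coding pairs with gaps under 500 bp, 1 peak covered both starts in 52.4%. The windows gave 17 of the 50 as divergent; 1 peak covered both starts in 11 of these, 1 start was covered in 1 (Trp53 and Wrap53) and neither in 5. Of the other 33, 7 lay under 1 peak, 8 under separate peaks, and 10 had only 1 start covered. Ranbp1, a regulator of the Ran GTPase, with Trmt2a had 269 tags at a fold of 16.51, second to Mcm7 and Ap4m1. The purine synthesis genes Paics and Ppat shared 103 tags at a fold of 5, Gart and Son 151 tags at a fold of 3.18, and the antigen-processing genes Tap1 and Psmb9 64 tags at a fold of 3.93.

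Across chromosomes, shared-start peaks made up from 9.03% (4.89 to 14.9; 13 of 144) of start-covering peaks on chromosome 18 to 19.3% (13.9 to 25.9; 35 of 181) on chromosome 14. On the X chromosome they were 6 of 54.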

How the data were processed

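Chromatin was sonicated and captured on streptavidin beads, and libraries were sequenced on an Illumina platform, per the labels' protocols. Reads were handled with Bowtie 0.12.8 and MACS 1.4.2 on mm9, per the submitters' processing notes. Parameters, the annotation tool, the use of the input in peak calling, duplicate handling and library depth are not given in the sources used here. The deposited table gives for each peak the authors' tag count, fold ratio and score (-10 log10 p, as MACS writes it), and the distances from peak to gene starts. Tags without molecular identifiers are not independent molecules.

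Members, gene lists and pairs were chosen with earlier results of these data known, some pairs because they had been seen there, and the lists were written from memory. Medians have 95% order-statistic intervals, shares exact Clopper-Pearson intervals; ratio intervals come from combining the bounds of both medians. Of 1522 member symbols, 1503 were matched to RefSeq (GRCm38.p6) by accession, 11 by symbol, 6 by an older symbol and 2 not at all, and 1253 had a window. Windows were joined where at least 20 bases overlapped. Peak and mm9 start coordinates are as deposited or derived from them, and none was converted between builds. Named peaks were the 10 highest scores and folds, up to 4 per list, up to 15 fixed pairs, the 5 best over 3 or more genes, and the 3 widest, narrowest and lowest-scoring; up to 6 windows could be printed. Others are named as examples, and some peaks that the rule names are not reported here. Software was Python 3.11.15, numpy 2.4.6, pandas 2.3.3, scipy 1.17.1 and matplotlib 3.10.9; the calculations were tested on simulated data.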

Additional observations from a re-analysis of the deposited data

How the results depend on the processing

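With 1 pull-down library, no replicate could be left out. No paired analysis was possible because the series has 1 pull-down library and no test. Of 96 recomputed values that could move, 65 stayed within their interval or within 1.5 times the count. Taking starts within 100 bp or 1 kb of the peak gave 793 and 961 shared-start peaks, and protein-coding symbols alone 542. When the lower-scoring peaks of the list were left out, 468 remained, and 34 at a fold of 10 or more, where fewer peaks enter by construction; list genes in shared-start peaks were then 50 in that smaller set. Within width quartiles the ratio of medians was 1 for width in the second, 0.972 for fold in the first, and 0.946 for score and 0.996 for tags per kb in the fourth; tags per kb gave 0.992 in the higher-scoring set. So the medians' ratios were on either side of equality. Counting pairs of unknown strand as not opposite gave 79.7%, and mm9 starts gave a median gap of 157 bp (both chosen after seeing the data). In a shorter stretch, 150 bases before to 50 after the start, shares were lower by construction: at shared and single starts ACAAAG stood in 5.86% and 9.56%, AACAAT in 2.12% and 2.71%, CCAAT in 31.6% and 30.1%, GGGCGG in 64.3% and 69.2%, CACGTG in 6.84% and 8.99%, and TATAAA in 1.79% and 2.61%. At single starts AACAAAG stood in 2.66%, CCGGAAG in 17.7% and GCATGCGC in 5.40%. ACAAAG was again lower and CCGGAAG, at 25.2%, higher at shared starts. The depth of the library is unknown, which limits what a missing peak can show.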
